A study of Drosophila melanogaster with 35 samples.

Results

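Fly heads that carried human tau and the AD-linked TREM2R47H variant were compared with fly heads that carried human tau and wild-type TREM2. TREM2 was co-expressed with its adaptor TYROBP in the glia of both genotypes. The comparison covers 6 of the 35 RNA-seq libraries of the series, all those whose labels give tau together with one of the TREM2 transgenes. It was made over all 14279 genes in the table of normalized values. The 3 tau/TREM2R47H/TYROBP libraries came from flies with Repo-LexA/+ and with GMR-gal4,UAS-Tau over the chromosome that carries LexAop2-TREM2-R47H,TYROBP. The 3 tau/TREM2WT/TYROBP libraries had LexAop2-TREM2-WT,TYROBP in its place. Both genotypes therefore shared the glial driver Repo-LexA, the eye driver GMR-gal4, UAS-Tau and TYROBP, and both were 1 week old. RNA came from pooled heads.

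The series holds 12 *Drosophila melanogaster* genotypes, 17 libraries with GMR-gal4 and 18 with the pan-neuronal driver elav-gal4. The other groups used here are tau flies without TREM2 (Repo-LexA/+;GMR-gal4,UAS-Tau/+, 2 libraries), control flies (Repo-LexA/+;GMR-gal4/+, 3 libraries) and 3 further backgrounds in which TREM2R47H/TYROBP and TREM2WT/TYROBP flies were both sequenced in 3 libraries each. These backgrounds are GMR-gal4 without tau, elav-gal4, and elav-gal4 with UAS-Aβ42. They share no library with the tau genotypes. GMR-gal4 directs tau to the eye, mainly to photoreceptors, so whole-head RNA mixes tau-expressing cells with many that lack tau. The glial transgenes were made by PhiC31 integration. The number of lines and the integration sites are not given in the sources used here, and any difference between the stocks that carry the variant and the wild-type receptor cannot be told apart from the amino acid change.

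TREM2 is a lipid-sensing receptor of microglia. It signals through the immunoreceptor tyrosine-based activation motif of TYROBP, and the R47H substitution in its ligand-binding domain raises the risk of late-onset AD. Flies have no TREM2 or TYROBP gene of their own. Their glia clear debris through other receptors, such as Draper, while circulating hemocytes are the main phagocytes of the body.

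Values are log2 CPM, the share of a library's reads on a gene on a log scale, from which the authors removed the effect of RNA integrity as scored by the RIN, and each value below is set at the mean RIN of the series. The table has no entry for human TREM2, TYROBP or MAPT, so transgene RNA was not analysed here. Sequencing depth per library is unknown from such values. The RIN was 6.5, 7 and 6.7 in the TREM2R47H libraries and 6.4, 5.6 and 6.4 in the TREM2WT libraries, so that it did not overlap between the genotypes. The 10 most abundant genes made up 14.7, 27.5 and 17.1% of the summed linear values in the TREM2R47H libraries and 12.3 to 13.5% in the TREM2WT libraries. The sums of these RIN-adjusted values differed between libraries, so the percentages are not shares of reads. Among GMR-gal4 libraries the percentage tended to be higher at higher RIN, with 13.4% in a library at 5.6 and 53.3% in that at 7.5. In the elav-gal4 libraries it stayed between 11.5 and 13.4%. The part of the RIN adjustment in the difference between the genotypes was not tested. The methods describe male flies. All 17 GMR-gal4 libraries, however, had high yolk protein values, with Yp1 at 13.7 to 14.1 in the 6 libraries compared, and low values of the male dosage compensation RNA roX1 (5.68 to 5.89). The 18 elav-gal4 libraries, whose labels carry a Y, had the opposite pattern. Comparisons with the elav-gal4 backgrounds therefore differ in driver and sex pattern as well as in tau. The intestinal protease gene alphaTry stood at 6.28 in TREM2R47H replicate 2 and 6.29 in TREM2WT replicate 1 and at −0.67 or lower in the other 4 libraries. The oocyte gene osk was low in TREM2R47H replicate 1 (−2.10) and TREM2WT replicate 2 (−0.93) and between 2.72 and 3.83 in the rest. Neither of these genes separated the genotypes.

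A gene was called a DEG at a Benjamini-Hochberg adjusted p under 0.05 in limma with RIN as covariate, together with a fold change above 1.2. By this rule 161 genes were upregulated and 134 downregulated in tau/TREM2R47H/TYROBP flies relative to tau/TREM2WT/TYROBP flies, or 295 DEGs (2.07% of genes tested, 1.13% up and 0.938% down). The median size of the log2 change was 0.50 among the DEGs and 0.10 among all genes. Of the DEGs, 40 rose and 37 fell by more than 1 log2 unit. At equal RIN the values of 294 of the 295 did not overlap between the 3 and 3 libraries, against 25.3% of all genes, and in the values as deposited those of 261 did not. At the threshold, the largest adjusted p of a DEG was 0.0494 and the smallest log2 change 0.26, and a further 165 genes passed the adjusted p with a fold of 1.2 or less. The nominal replicates are libraries of the same genotype, and nothing in the labels says that they came from separate crosses, so p-values measure the spread between these libraries. With 3 against 3 libraries an exact permutation test of a single gene cannot go below 0.1. The calls rest on the spread of each gene within the 12 genotypes of all 35 libraries, 18 of them with elav-gal4. Other genes added little to that spread (1.05 prior against 22 residual degrees of freedom in limma). The count depended on single libraries: 152 DEGs were found without TREM2WT replicate 1 and 153 without TREM2R47H replicate 1, while 106 of the 295 were called whichever of the 6 libraries was left out. Without both libraries with high alphaTry, 101 genes were called, 93 of them among the 295. The 6 libraries fitted alone gave 17 DEGs without RIN and 0 with RIN, where limma found 1542 genes at an unadjusted p under 0.05.

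**Figure D1:**
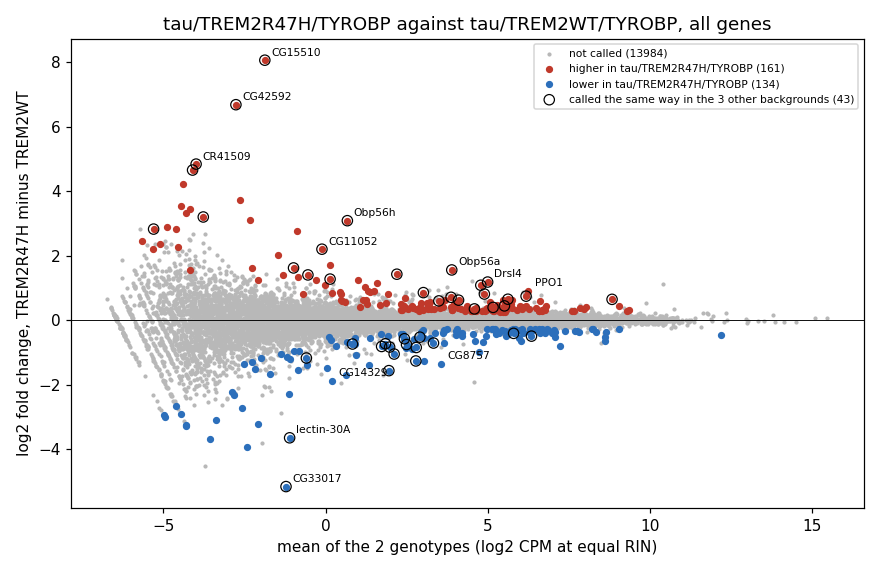
Log2 fold change of TREM2R47H minus TREM2WT in tau flies (vertical axis) against the mean of both genotypes in log2 CPM at equal RIN (horizontal axis) for all 14279 genes. The 161 upregulated genes are red, the 134 downregulated genes blue, and rings mark 43 DEGs called in the same direction in the 3 other backgrounds, with CG15510 (8.06) and CG33017 (−5.16) at the extremes.

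The gene with the largest rise was CG15510, a protamine-like gene (3R, 29835950 to 29837447, plus strand) that a later annotation names Prtl99C. It stood at 2.20, 2.28 and 1.99 in the TREM2R47H libraries and at −4.84, −6.39 and −6.48 in the TREM2WT libraries, where it was at or near the floor of the table. Its neighbour CG42592, on the other strand and overlapping it, stood at 0.88, 0.66 and 0.19 against −6.25, −5.76 and −6.30. Every TREM2R47H library was thus above every TREM2WT library by several log2 units for both genes. The fitted log2 changes were 8.06 (SE 0.92, adjusted p = 6.6e-06, limma) and 6.68 (SE 0.61, adjusted p = 2.4e-07). With 1 added to the linear value they became 2.27 and 1.22, so that their size depended on how the floor was treated. Because it is not stated whether reads were counted by strand, the reads of the overlapping pair cannot be told apart. In tau flies without TREM2 the values were −3.99 and −6.54 for CG15510 and −6.40 and −6.66 for CG42592, so the TREM2R47H libraries stood apart from both other tau genotypes.

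The clearest fall was that of CG33017, a G-patch domain gene on 2R (16272114 to 16277655, plus strand) related to human GPATCH8. It measured −3.95, −3.74 and −3.72 in the TREM2R47H libraries and 1.61, 1.7 and 0.78 in the TREM2WT libraries. Tau flies without TREM2 had −3.25 and −3.40. Here the TREM2WT libraries were the high ones and the TREM2R47H libraries were level with the flies without TREM2. The log2 change was −5.16 (SE 0.34, adjusted p = 2.0e-09, limma). lectin-30A, a C-type lectin gene, had the same arrangement, with −2.37, −3.36 and −3.07 in TREM2R47H, 0.97, 0.52 and 0.67 in TREM2WT, and −2.22 and −2.04 in tau flies. It fell by 3.65 on the log2 scale (SE 0.58, adjusted p = 0.00061). Muc55B, a mucin gene, was at −2.12, −2.39 and −2.28 against 0.40, −0.16 and −0.15, a log2 change of −2.29 (SE 0.59, adjusted p = 0.030) that lost its call when any library other than TREM2WT replicate 2 was left out.

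Among genes with moderate expression, several other genes differed by more than 1 log2 unit. CG11052 stood at 1.17, 1.05 and 0.75 in the TREM2R47H libraries and −1.07, −1.22 and −1.34 in the TREM2WT libraries (log2 change 2.20, SE 0.18, adjusted p = 5.6e-08, limma). Its values in tau flies were −1.29 and −1.74, and in control flies the mean was 1.05, so the TREM2R47H libraries were close to the controls without tau. CG11052 was also upregulated in GMR-gal4 flies without tau (0.86), with elav-gal4 (1.23) and with Aβ42 (1.06). Its difference from GMR-gal4 flies without tau did not pass the test (1.34, adjusted p = 0.43, limma). ACXD, which encodes an adenylate cyclase, was at 2.01, 2.19 and 2.25 against 3.24, 3.58 and 3.44 (log2 change −1.27, SE 0.10, adjusted p = 5.1e-08). CG8757 was at 2.95, 2.69 and 3.01 against 3.94, 4.48 and 4.29 (log2 change −1.36, SE 0.17, adjusted p = 1.6e-05). For both, the TREM2WT libraries were the high ones and tau flies lay near the TREM2R47H values, at 2.34 and 2.36 for ACXD and 3.19 and 3.21 for CG8757. CG43789 and its neighbour CG43788 fell together, by 1.57 and 1.05 on the log2 scale. CG43789 measured 1.21, 1.10 and 1.19 against 2.69, 2.73 and 2.80, and it overlaps Pkc53E, a protein kinase C gene, so that its reads are uncertain. eIF4E-4, one of the fly paralogs of the mRNA cap-binding translation factor, was at −1.56, −1.08 and −1.17 against 0.25, 0.24 and −0.12 (log2 change −1.39, SE 0.17, adjusted p = 1.6e-05). In this gene the TREM2R47H libraries were the low ones, since tau flies measured 0.11 and 0.00. CG14329 also fell against tau flies (1.5 and 1.5), with −0.14, −0.84 and −1.24 in TREM2R47H and 0.94, 1.19 and 1.31 in TREM2WT (log2 change −1.89, SE 0.25, adjusted p = 4.8e-05).

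Further genes had changes of more than 1 log2 unit, most of which lost their calls when single libraries were left out. CG5391 stood at 0.52, 0.62 and 0.32 in the TREM2R47H libraries and −2.22, −1.51 and −3.06 in the TREM2WT libraries (log2 change 2.75, SE 0.63, adjusted p = 0.015, limma). CG34437 stood at 1.00, 0.79 and 1.19 against −0.72, −0.84 and −0.61 (log2 change 1.72, SE 0.28, adjusted p = 0.00063). CG13646 and CG5770 rose by 1.4 and 1.23 on the log2 scale (adjusted p = 0.0084 and 0.013). Of these 4 rises only that of CG34437 was called whichever of the 6 libraries was left out. CG5391 lost its call without TREM2WT replicate 1 or 3 or TREM2R47H replicate 1 (adjusted p = 0.063, 0.11 and 0.069), CG13646 without TREM2WT replicate 3 (0.090) and CG5770 without TREM2WT replicate 1 (0.14) or TREM2R47H replicate 2 (0.056). CG3108, a carboxypeptidase-like gene, was at −0.20, −0.53 and 0.04 against 3.30, 0.76 and 0.39 (log2 change −1.71, adjusted p = 0.041). Its value rested on TREM2WT replicate 1, without which the log2 change was −0.61 (adjusted p = 0.24), and the call was also lost without TREM2R47H replicate 1 or 2. ppk19, a sodium channel gene of the pickpocket family, was at −0.93, −0.47 and −0.74 against 0.64, 0.94 and 0.76 (log2 change −1.49, SE 0.33, adjusted p = 0.011), and its call was lost without TREM2R47H replicate 1 (0.082). CR40679, on an unplaced scaffold, and the 28S ribosomal RNA pseudogene 28SrRNA-Psi:CR45859 fell by 1.38 and 1.26 (adjusted p = 0.0093 and 0.0049) and kept their calls whichever library was left out. Reads of the pseudogene are uncertain because ribosomal RNA sequences are repeated in the genome.

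**Figure D2:**
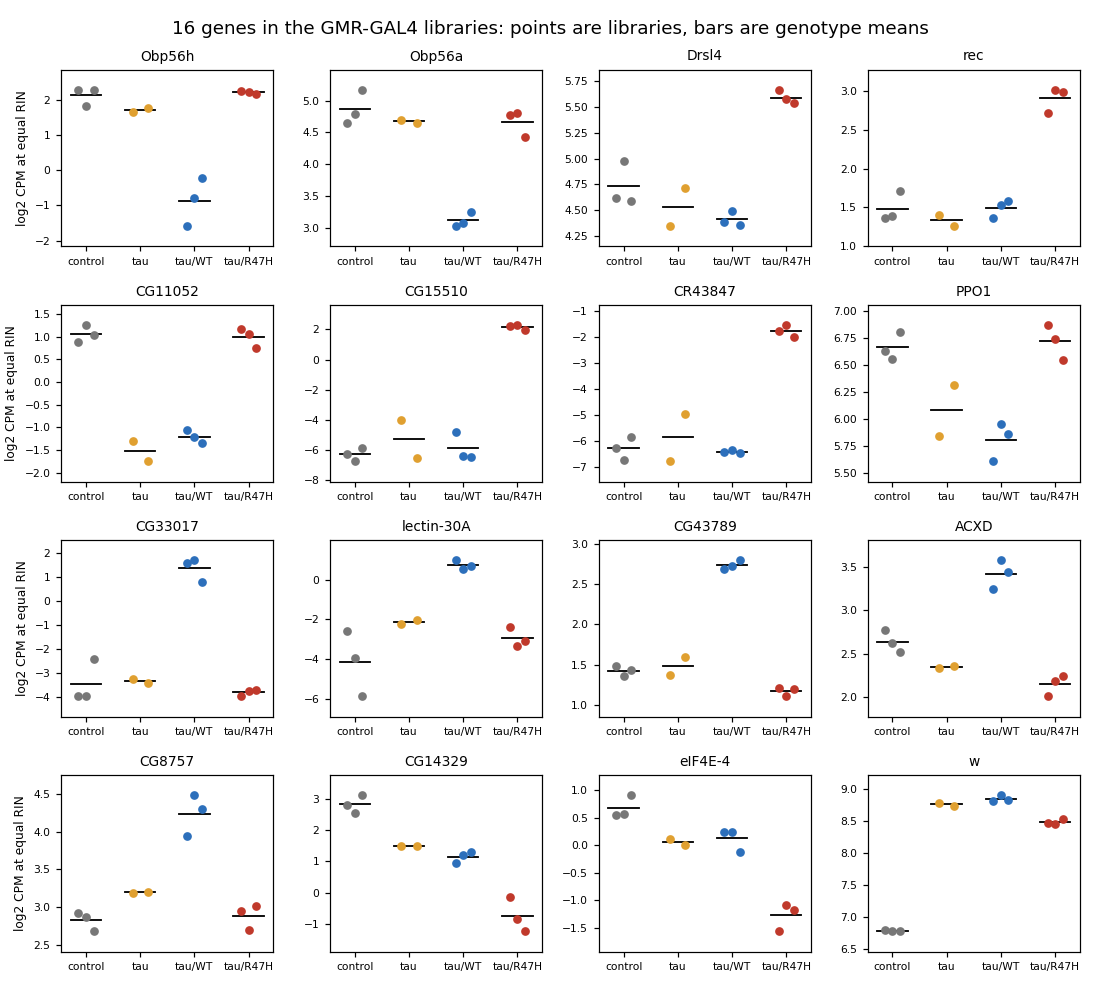
Values of 16 genes in log2 CPM at equal RIN in each GMR-gal4 library of control, tau, tau/TREM2WT/TYROBP (tau/WT) and tau/TREM2R47H/TYROBP (tau/R47H) flies, where points are libraries and bars are genotype means. The TREM2WT libraries stand apart from tau flies for Obp56h, CG33017, lectin-30A and ACXD, and the TREM2R47H libraries for rec, Drsl4, CG11052 and CR43847.

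rec and mus308, whose products act in recombination and DNA repair, were upregulated, and no list of such genes was counted. rec encodes the MCM8-like helicase that promotes meiotic crossing over. It rose from 1.36, 1.52 and 1.58 in the TREM2WT libraries to 2.72, 3.02 and 3.0 in the TREM2R47H libraries, with tau flies at 1.4 and 1.25 (log2 change 1.42, SE 0.14, adjusted p = 1.0e-06, limma). rec overlaps alpha-Man-IIb and CG4576 in the annotation. mus308 encodes DNA polymerase theta, which joins broken ends at short homologies. It stood at 4.22, 4.31 and 4.14 against 3.54, 3.51 and 3.52, and 3.57 and 3.56 in tau flies (log2 change 0.71, SE 0.06, adjusted p = 5.1e-08). DNApol-eta, a translesion polymerase gene singled out after its values were seen, had a log2 change of 0.54 (adjusted p = 0.012), with 3.32, 3.49 and 3.40 against 3.04, 2.62 and 2.93. For all of them the lowest TREM2R47H library was above the highest TREM2WT library. rec and mus308 were upregulated in all 4 backgrounds. DNApol-eta was called in tau flies alone, which does not show that it differed from the other backgrounds. Its difference from GMR-gal4 flies without tau and from elav-gal4 flies with Aβ42 did not pass the test. rec, mus308 and CG11052 lie on chromosome arm 3R and DNApol-eta on 3L.

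Odorant binding proteins carry odorants and other small hydrophobic ligands through the fluid around sensory neurons, and some are made by glia or by non-neuronal cells. Of 43 measured members 4 rose and 0 fell (9.30%, against 2.07% of all genes), and limma found 13 at an unadjusted p under 0.05. Among all 14279 genes it found 2137 at that level. The median log2 change of the 43 was 0.36, against 0.01 for all genes, and 35 were positive. Obp56h, which has been linked to male courtship and pheromone composition in flies, stood at 2.26, 2.21 and 2.18 in the TREM2R47H libraries and −1.58, −0.78 and −0.23 in the TREM2WT libraries. Tau flies had 1.65 and 1.76 and control flies a mean of 2.12, so it was the TREM2WT libraries that were low. The log2 change was 3.08 (SE 0.25, adjusted p = 5.1e-08), made up of 0.51 (adjusted p = 0.34) for TREM2R47H against tau flies and −2.57 (adjusted p = 4.7e-07) for TREM2WT against tau flies. Obp56a, at 4.77, 4.81 and 4.43 against 3.02, 3.08 and 3.25, was likewise level with tau flies (4.70 and 4.64) in the TREM2R47H libraries alone (log2 change 1.55, SE 0.17, adjusted p = 4.4e-06). Obp56d, the most abundant of the 4, differed in the other genotype. It was at 9.21, 9.19 and 9.09 in TREM2R47H, 8.43, 8.53 and 8.60 in TREM2WT and 8.60 and 8.63 in tau flies (log2 change 0.64, SE 0.08, adjusted p = 4.3e-05). Obp57a rose by 0.35 (SE 0.09, adjusted p = 0.030), a call lost without TREM2WT replicate 1 or 3 or without TREM2R47H replicate 1 or 2. All 4 are on chromosome arm 2R, and 3 of them lie within a stretch of the arm described with the positions of DEGs.

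Among chemoreceptors, 3 of 144 rose and 0 fell (2.08%), which is the share of all genes. Or82a, the odorant receptor for geranyl acetate, measured 2.15, 2.15 and 2.22 in the TREM2R47H libraries and 1.30, 0.76 and 0.99 in the TREM2WT libraries (log2 change 1.15, SE 0.20, adjusted p = 0.0011, limma). Ir75b, an antennal receptor for short-chain acids, was at 3.17, 3.23 and 2.93 against 2.64, 2.75 and 2.68 (log2 change 0.42, adjusted p = 0.043). The Ir75b call was lost without TREM2WT replicate 1 or 3 or TREM2R47H replicate 1 or 2. Ir52d, a taste receptor gene, was called at values near the floor (−4.87, −4.69 and −3.72 against −6.66, −7.26 and −6.72), and the call was lost without TREM2R47H replicate 3 (adjusted p = 0.054).

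The takeout genes encode secreted proteins related to juvenile hormone binding proteins. Of 16 members 3 rose and 0 fell (18.8%, against 2.07% of all genes), and the list median was 0.26. CG5867, the most abundant of them, stood at 9.33, 9.23 and 9.22 in the TREM2R47H libraries and 8.71, 8.88 and 8.91 in the TREM2WT libraries (log2 change 0.43, SE 0.09, adjusted p = 0.0060). CG7079 and CG31189 rose by 0.37 and 0.39 on the log2 scale (adjusted p = 0.0022 and 0.025). With only the 17 GMR-gal4 libraries in the fit, 1 of the 16 was called. The calls of CG5867 and CG31189 were lost without TREM2WT replicate 1 (adjusted p = 0.068 and 0.052) or TREM2R47H replicate 1 (0.052 and 0.19), and that of CG31189 also without TREM2WT replicate 2 or 3 or TREM2R47H replicate 2.

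The EcKinase-like genes encode predicted small-molecule kinases, some of which act on ecdysteroids in insects. Of 48 members 8 were called (16.7%, against 2.07% of all genes), 6 up and 2 down. CG31436 stood at 5.37, 5.28 and 5.27 in the TREM2R47H libraries, 4.43, 4.64 and 4.42 in the TREM2WT libraries and 4.63 and 4.84 in tau flies (log2 change 0.81, SE 0.07, adjusted p = 5.1e-08). CG10553, CG31300, CG10562, CG6908 and CG9497 rose by 0.32 to 0.46 on the log2 scale. CG11893, which lies in the same cluster on 3R as CG31436, went the other way at 3.0, 3.0 and 2.93 against 3.77, 3.67 and 3.62 (log2 change −0.71, SE 0.09, adjusted p = 1.6e-05), with tau flies at 3.01 and 3.06. CG16898 fell by 0.66 (adjusted p = 0.038) and lost its call without any single library of the 6. Members in the same cluster thus moved in opposite directions, and the list median of 0.04 was near that of all genes. CG31370 and CG10550, on either side of CG31436, had log2 changes of 0.27 and −0.07 and were not called. The count was 2 of 48 with only the 17 GMR-gal4 libraries in the fit, and the calls of CG31300, CG10562, CG6908 and CG9497 were lost without TREM2WT replicate 1 (adjusted p = 0.078, 0.074, 0.094 and 0.088). Those of CG6908 and CG9497 were also lost without TREM2R47H replicate 1 (0.053 and 0.084).

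Lipid phosphate phosphatases dephosphorylate phosphatidic acid and related lipids at the cell surface. Of 8 members 3 fell and 0 rose (37.5%, against 2.07% of all genes). laza, which acts in the photoreceptor lipid cycle, was at 5.60, 5.61 and 5.53 in the TREM2R47H libraries and 5.94, 5.90 and 5.81 in the TREM2WT libraries (log2 change −0.30, SE 0.07, adjusted p = 0.012, limma). Its neighbours CG11438 and CG11437 had log2 changes of −0.40 and −0.74 (adjusted p = 0.0062 and 0.018). These 3 genes follow each other on chromosome arm 3L, from 22458816 (laza) to 22469853 (CG11437), and CG11426, the next member in the row, had a log2 change of 0.00. The 5 members not called, wun and wun2 among them, had log2 changes from −0.13 to 0.08. The calls of laza and CG11437 were lost without TREM2WT replicate 1 (adjusted p = 0.094 and 0.080), and those of CG11438 and CG11437 without TREM2R47H replicate 1 (0.066 and 0.059). The CG11437 call was also lost without TREM2WT replicate 3 or TREM2R47H replicate 2.

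Among detoxification genes 5 of 88 cytochrome P450 genes, 1 of 36 glutathione S-transferases and 2 of 19 UDP-glycosyltransferases rose, and 1 UDP-glycosyltransferase fell. The shares called were 5.68, 2.78 and 15.8%, against 2.07% of all genes. Of the 88 cytochrome P450 genes, which oxidise hormones and foreign compounds, 5 rose and 0 fell (5.68%), and 67 had a positive log2 change. The list median was 0.098, against 0.01 for all genes. Cyp4d21 encodes a P450 with male-biased head expression. It was at 1.84, 1.87 and 1.18 in the TREM2R47H libraries against 0.30, 0.50 and 0.40 in the TREM2WT libraries (log2 change 1.23, SE 0.27, adjusted p = 0.010, limma), but its direction turned without the RIN covariate (−0.41, adjusted p = 0.82), and the call was lost without TREM2WT replicate 1 or TREM2R47H replicate 1 (adjusted p = 0.063 and 0.080). Cyp6w1, Cyp6a21, Cyp6a8 and Cyp4d8 rose by 0.30 to 0.41 on the log2 scale, and without TREM2WT replicate 1 the calls of Cyp6a8 and Cyp4d8 were lost (adjusted p = 0.12 and 0.15). Without TREM2R47H replicate 1 these were also lost, and Cyp6w1 was under the fold of 1.2. The Cyp6a8 call was lost too without TREM2WT replicate 2 or TREM2R47H replicate 2 or 3, and the Cyp4d8 call without TREM2WT replicate 3. With only the 17 GMR-gal4 libraries in the fit 1 of the 88 was called. Of 36 glutathione S-transferases 1 was called, GstD2 (1.97, 1.71 and 2.11 against 1.08, 0.98 and 1.06, log2 change 0.89, SE 0.19, adjusted p = 0.0091), which lost its call without TREM2R47H replicate 1 (adjusted p = 0.054). The other 35 were not called, although 33 of the 36 were positive and 18 had an unadjusted p under 0.05. In limma 2137 of all 14279 genes had such a p. The median log2 change of the 36 was 0.16, against 0.01 for all genes. Of 19 UDP-glycosyltransferases Ugt86Di (0.63) and Ugt58Fa (0.44) rose and Ugt35b (−0.50, SE 0.07, adjusted p = 8.5e-05) fell. Ugt35b stood at 6.16, 6.11 and 6.04 in TREM2R47H against 6.58, 6.61 and 6.62 in TREM2WT, with tau flies at 6.63 and 6.82. The Ugt86Di call was lost without TREM2WT replicate 1 or 3 or TREM2R47H replicate 1.

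**Figure D3:**
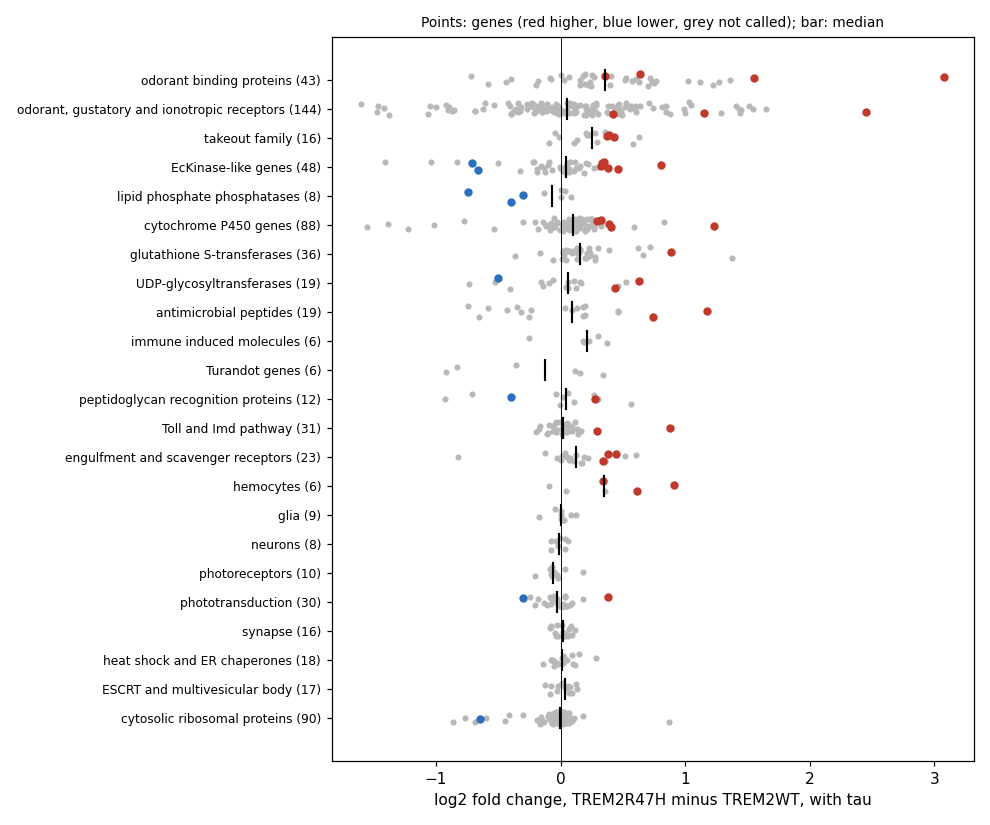
Log2 fold change of TREM2R47H minus TREM2WT in tau flies for the members of 23 gene lists (number measured in parentheses), with red points higher, blue points lower, grey points not called and a black bar at the list median. Odorant binding proteins (median 0.36) and hemocyte markers (0.35) lie to the right of 0, while the photoreceptor (−0.06), glial (0.01) and synapse (0.02) lists lie close to it.

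The immune genes that changed were few and did not include the peptides most often used to follow immune activation in flies. Of 19 antimicrobial peptide genes 2 rose and 0 fell (10.5%, against 2.07% of all genes). Drsl4 and Drsl5, relatives of the antifungal peptide gene Drosomycin, rose together. They are neighbours on 3L (3315620 to 3315942 and 3316781 to 3317144, plus strand). Drsl4 stood at 5.66, 5.57 and 5.54 in the TREM2R47H libraries, 4.39, 4.49 and 4.36 in the TREM2WT libraries and 4.35 and 4.71 in tau flies (log2 change 1.18, SE 0.14, adjusted p = 9.1e-06, limma). Drsl5 stood at 6.58, 6.57 and 6.53 against 5.85, 5.78 and 5.83, with 5.86 and 5.96 in tau flies (log2 change 0.74, SE 0.12, adjusted p = 0.00089). The TREM2R47H libraries were the high ones for both. Drosomycin itself, listed as Drs, had a log2 change of 0.18, Mtk 0.09, Dpt −0.58 and DptB −0.75, none of which was called. None of the 6 immune induced molecule genes and none of the 6 Turandot genes was called by limma. At an unadjusted p under 0.05 were 2 and 0 of them, against 2137 of all 14279 genes. In the Toll and Imd pathways 2 of 31 rose and 0 fell (6.45%). These were SPE (0.29, adjusted p = 0.0029), the protease that activates the Toll ligand, and Toll-4 (0.88, adjusted p = 0.033). Of 12 peptidoglycan recognition proteins (16.7% called) PGRP-LA rose (0.28, adjusted p = 0.0013) and PGRP-SD fell (−0.40, adjusted p = 0.032). The call of PGRP-SD was lost without any single library of the 6, and that of Toll-4 without any of the 6 except TREM2R47H replicate 2. PGRP-LA and SPE were under the fold of 1.2 without TREM2WT replicate 1 (log2 changes 0.22 and 0.23), as was PGRP-LA without TREM2R47H replicate 1 (0.24).

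Of 6 hemocyte marker genes PPO1, PPO2 and eater rose and 0 fell (50%, against 2.07% of all genes), and all 3 calls were lost without TREM2WT replicate 1 or TREM2R47H replicate 1. None of the 6 was called in the other 3 backgrounds, which alone does not show a difference from them. PPO1, the crystal cell prophenoloxidase, stood at 6.87, 6.74 and 6.54 in the TREM2R47H libraries, 5.61, 5.95 and 5.86 in the TREM2WT libraries and 5.84 and 6.32 in tau flies (log2 change 0.91, SE 0.19, adjusted p = 0.0073, limma). PPO2 was at 6.17, 6.15 and 5.88 against 5.39, 5.57 and 5.39, and 5.71 and 6.00 in tau flies (log2 change 0.62, SE 0.15, adjusted p = 0.019). The phagocytic receptor gene eater was at 4.51, 4.55 and 4.46 against 4.01, 4.22 and 4.25, and 4.41 and 4.56 in tau flies (log2 change 0.34, SE 0.08, adjusted p = 0.024). For eater it was thus the TREM2WT libraries that were low. The plasmatocyte genes Hml, Pxn and NimC1 were not called, at log2 changes of 0.04, −0.09 and 0.36. The summed value of the 6 markers was 969 to 988 CPM in the TREM2R47H libraries and 826 to 923 CPM in the TREM2WT libraries. In bulk RNA, fewer cells of a type and less RNA per cell cannot be told apart. The PPO1 call was lost without TREM2WT replicate 1 (adjusted p = 0.067) or TREM2R47H replicate 1 (0.060), and those of PPO2 and eater were lost without either of these libraries and without TREM2R47H replicate 2. The PPO2 call was also lost without TREM2WT replicate 3 (0.086).

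Of 23 engulfment and scavenger receptor genes 20 had a positive log2 change, and the list median was 0.13, against 0.01 for all genes. In this list 3 genes rose and 0 fell (13%, against 2.07% of all genes). Beside eater these were NimC2 (0.45, SE 0.10, adjusted p = 0.0090), a Nimrod receptor of hemocytes, and ninaD (0.38, SE 0.08, adjusted p = 0.0087), a scavenger receptor that takes up carotenoids for the visual pigment. NimC2 stood at 3.49, 3.44 and 3.34 in the TREM2R47H libraries, 2.84, 3.08 and 3.0 in the TREM2WT libraries and 3.34 and 3.57 in tau flies. ninaD stood at 5.29, 5.12 and 5.09 against 4.67, 4.85 and 4.84, and both groups were above tau flies (4.28 and 4.45). drpr, which encodes the glial engulfment receptor Draper, had a log2 change of −0.03 and was not called. All 3 calls were lost without TREM2WT replicate 1 and without TREM2R47H replicate 1, where ninaD had adjusted p = 0.098 and 0.097.

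None of 9 glial markers, 8 neuronal markers, 10 photoreceptor markers, 16 synaptic genes, 17 ESCRT genes or 18 chaperone genes was called by limma. At an unadjusted p under 0.05 were 2, 0, 2, 0, 1 and 3 of them, against 2137 of all 14279 genes. The groups did not overlap for 3 glial, 1 neuronal and 6 photoreceptor markers, against 25.3% of all genes. Of the 10 photoreceptor markers 8 had a negative log2 change and 2 a positive one. The transcription factor gene repo, whose regulatory region drives the glial transgenes, was at 6.43, 6.51 and 6.50 in the TREM2R47H libraries and 6.56, 6.68 and 6.72 in the TREM2WT libraries. The groups did not overlap, and the log2 change of −0.17 (SE 0.05, adjusted p = 0.038) was under the fold required of a DEG. Among 10 photoreceptor genes the log2 changes ran from −0.20 (Rh5) to 0.18 (trp), and ninaE, the main rhodopsin gene, had −0.07. Of 30 phototransduction genes the called ones were laza and ninaD, given above (6.67%, against 2.07% of all genes). Of 90 cytosolic ribosomal protein genes RpL23A alone was called, at 8.31, 8.21 and 8.36 against 9.09, 8.93 and 8.81 (log2 change −0.65, SE 0.11, adjusted p = 0.0014), with tau flies at 8.60 and 8.37. In the fat body list Lsp2, a larval storage protein gene, fell by 0.79 on the log2 scale (SE 0.20, adjusted p = 0.030), and its call was lost when any library other than TREM2R47H replicate 3 was left out. Of 17 JNK and p53 target and cell death genes CG10176 was called (0.31, adjusted p = 0.029), which a later annotation names grnd, the receptor for the TNF ligand Eiger. Its call did not hold without TREM2WT replicate 1 or 3 or without any 1 of the TREM2R47H libraries.

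Of 81 cuticle protein genes 2 rose and 1 fell (3.70%, against 2.07% of all genes). Cpr76Bc stood at 3.52, 3.49 and 3.32 in the TREM2R47H libraries and 2.61, 2.48 and 2.68 in the TREM2WT libraries (log2 change 0.85, SE 0.09, adjusted p = 1.7e-06, limma), and it was called whichever library was left out. Its neighbour Cpr76Bb rose by 1.61 (adjusted p = 0.043), a call kept only without TREM2WT replicate 2. Cpr72Ec was at 5.31, 5.26 and 5.40 against 5.74, 5.87 and 5.88 (log2 change −0.51, SE 0.11, adjusted p = 0.012), while tau flies had a mean of 8.01. Both TREM2 genotypes were thus well below tau flies for Cpr72Ec, and the call between them was lost without TREM2WT replicate 3 or TREM2R47H replicate 1. Of 20 Osiris genes 1 was called, Osi2 (−0.27, adjusted p = 0.019), which kept its call only without TREM2WT replicate 3 or TREM2R47H replicate 3. Of 24 Jonah and trypsin protease genes lambdaTry was called at values near the floor (−6.19, −6.66 and −6.52 against −3.94, −4.22 and −2.23), and the call was lost without TREM2WT replicate 3 (adjusted p = 0.051). Among stock markers the heat shock gene Hsp70Bc rose by 0.59 (adjusted p = 0.039), a call kept only without TREM2R47H replicate 3, and its reads are uncertain because near-identical copies of the gene exist.

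The eye pigment transporter gene w, which marks most fly transgenes, separated the genotypes by a small and even amount. It stood at 8.47, 8.45 and 8.53 in the TREM2R47H libraries and 8.81, 8.90 and 8.82 in the TREM2WT libraries (log2 change −0.36, SE 0.04, adjusted p = 5.5e-06, limma). Tau flies measured 8.78 and 8.74, and control flies, which lack UAS-Tau, had a mean of 6.79. The log2 change of w between the TREM2 genotypes was −0.13 without tau, −0.13 with elav-gal4 and −0.07 with Aβ42, none of them called. RNA of the resident gene and of transgene copies cannot be told apart in these values.

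The downregulated DEGs of tau flies were longer than the upregulated ones. The median exon length was 1439 bases in the 161 upregulated genes, 2150 bases in the 134 downregulated genes and 1653 bases in all genes. Of 1489 genes longer than 5000 bases 29 fell and 3 rose (1.95 and 0.201%, against 0.938 and 1.13% of all genes). The downregulated genes had a median of 1561 bases in GMR-gal4 flies without tau, 1716 with elav-gal4 and 1638 with Aβ42. The upregulated genes had medians of 1308, 1192.5 and 1398 bases, so the downregulated ones were longer than the upregulated ones there too. In these backgrounds 16, 10 and 7 long genes fell (1.07, 0.672 and 0.47%, against 0.959, 1.02 and 0.672% of all genes). Those that rose numbered 2, 6 and 5 (0.134, 0.403 and 0.336%, against 0.812, 0.868 and 0.966% of all genes). In both elav-gal4 backgrounds the share of long genes that fell was thus below that of all genes. Long genes that fell, named after their values were seen, include trol, the perlecan gene (−0.28), the ryanodine receptor gene RyR (−0.39), CG8184, the ortholog of HUWE1 (−0.38), unc80 (−0.33) and axo (−0.34). Of these, axo kept its call whichever library was left out, while without TREM2R47H replicate 1 the adjusted p was 0.19 for trol, 0.15 for RyR, 0.060 for CG8184 and 0.069 for unc80. Without TREM2WT replicate 1 it was 0.14, 0.12 and 0.053 for trol, RyR and CG8184, and trol and RyR also lost their calls without TREM2WT replicate 3 or TREM2R47H replicate 2, and RyR without TREM2WT replicate 2. Without the RIN covariate 55 long genes fell and 2 rose in tau flies (3.69 and 0.134%, against 1.58 and 2.02% of all genes). The TREM2R47H libraries had the higher RIN in tau flies (mean 6.73 against 6.13) and the lower in GMR-gal4 flies without tau (6.07 against 7.00). Without RIN in the fit 29 long genes fell and 18 rose in the latter (1.95 and 1.21%, against 3.16 and 1.87% of all genes). The part of RNA integrity in the fall of long genes was not tested.

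The other 3 backgrounds show which of these genes differed wherever TREM2R47H replaced TREM2WT. In GMR-gal4 flies without tau 253 genes were called (1.77%, with 0.812% up and 0.959% down), in elav-gal4 flies 269 (1.88%, with 0.868% up and 1.02% down) and in elav-gal4 flies with Aβ42 234 (1.64%, with 0.966% up and 0.672% down). Of the 295 DEGs of tau flies, 114 were called in the same direction without tau (38.6% of the tau DEGs and 45.1% of the others), 75 with elav-gal4 (25.4% and 27.9%) and 89 with Aβ42 (30.2% and 38%). Calls in the opposite direction numbered 1, 3 and 0. The sign was shared by 88.1, 78 and 86.1% of the tau DEGs, against 58.4, 57.9 and 59.5% of all genes. In all 4 backgrounds 26 genes rose and 17 fell. The 26 include CG15510, CG42592, CG11052, rec, mus308, Drsl4, Drsl5, Obp56a, Obp56d, Obp56h, CG3397, CG11453, CG13646, Cpr76Bc, CG43351, CG40298, CG4335 and mRpL37, a mitochondrial ribosomal protein gene (0.62 in tau flies). The 17 include CG33017, lectin-30A, CG43788, CG43789, ACXD, CG11893, CG11437, Ugt35b, dbr, CG14589, CG6142, CR43883, CR32385, CR45339 and the overlapping genes mRpL41 (−0.53) and CG11808 (−0.58).

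The size of these shared differences was often similar. rec differed by 1.42 in tau flies, 1.56 without tau, 1.48 with elav-gal4 and 1.44 with Aβ42 on the log2 scale. mus308 differed by 0.71, 0.51, 0.54 and 0.74, and Drsl4 by 1.18, 1.35, 1.26 and 1.16. CG33017 differed by −5.16, −4.89, −4.66 and −4.03 and lectin-30A by −3.65, −3.50, −3.93 and −3.52. Other genes spread further: CG11893 differed by −0.71 in tau flies and by −1.31, −1.80 and −1.05 in the others, and Obp56h by 3.08 against 1.92, 1.47 and 2.02.

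**Figure D4:**
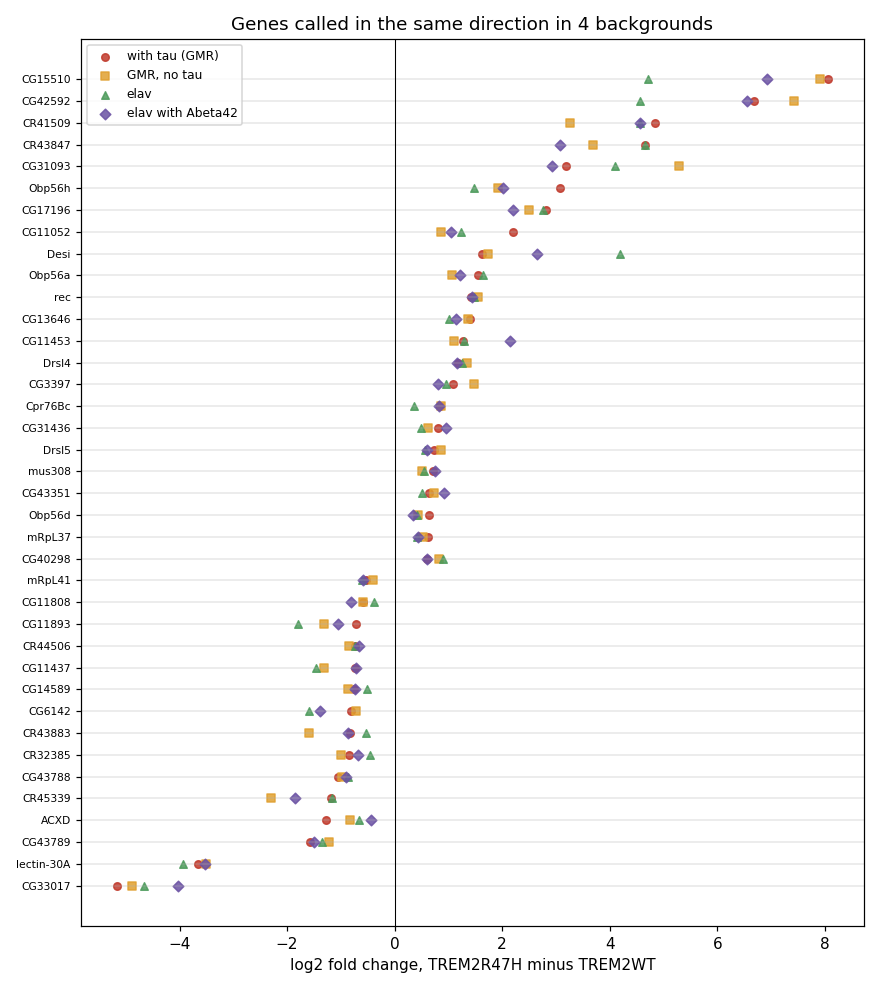
Log2 fold change of TREM2R47H minus TREM2WT in tau flies, in GMR-gal4 flies without tau, in elav-gal4 flies and in elav-gal4 flies with Aβ42 for the 38 of the 43 genes called in the same direction in all 4 whose log2 change in tau flies was at least 0.5 in size. The 23 upregulated genes plotted lie to the right of 0 and the 15 downregulated genes to the left in every background, from CG15510 (8.06 in tau flies) to CG33017 (−5.16).

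A further 147 DEGs were called in tau flies alone, and this does not show that they differed from the other backgrounds. The difference between the contrasts passed an adjusted p under 0.05 in limma for 2 genes against GMR-gal4 flies without tau (0.014%), 80 against elav-gal4 flies (0.56%) and 7 against elav-gal4 flies with Aβ42 (0.049%). Of the 147 genes 1, 18 and 1 passed these tests, and 0 passed all of them. The gene of the 147 that passed against the same driver without tau was CG43725. It stood at −3.74, −4.03 and −4.20 in the TREM2R47H libraries and −1.22, −1.67 and −2.43 in the TREM2WT libraries of tau flies, a log2 change of −2.22, and without tau it changed by 2.37. Its difference of −4.59 (adjusted p = 0.042) rests on values below 1 CPM in every library of tau flies, and its call in tau flies was lost without TREM2WT replicate 1 (adjusted p = 0.087). The other was CG31437 (0.34 with tau and −0.69 without, difference 1.02). Hemocyte genes were among those that differed from elav-gal4 flies: PPO1 changed by 0.91 in tau flies and −0.39 in elav-gal4 flies, a difference of 1.30. PPO1 changed by −0.15 without tau and 0.13 with Aβ42, and those differences did not pass the test. ACXD fell further in tau flies (−1.27) than with Aβ42 (−0.45). CG14879 rose in tau flies (1.57, 1.98 and 1.64 against 0.47, 0.95 and 0.72, log2 change 1.02) and rose further with Aβ42 (2.59). The number of genes that differed from GMR-gal4 flies without tau was 992 when RIN was left out of the fit and between 0 and 3 in the other settings. RIN ran in opposite directions in these backgrounds.

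DEGs were unevenly placed in the genome. Coordinates are those of the BDGP6 annotation in the deposited table. Chromosome arm 3R held 114 DEGs among 3445 genes tested (3.31%), 3L 68 of 2851 (2.39%), 2R 48 of 2949 (1.63%), X 33 of 2245 (1.47%) and 2L 30 of 2625 (1.14%). Chromosome 4 held 0 of 108 called by limma. Chromosome 3 thus held 61.7% of the DEGs and 6296 of the 14279 genes tested, of which 2.89% were called. On chromosome 2 the share called was 1.4% of 5574 genes. Of the 2245 X-linked genes tested 8 rose and 25 fell, while 1.13% of all genes rose and 0.938% fell. Of the 43 genes called in all 4 backgrounds 28 were on chromosome 3, 14 on chromosome 2 and 0 on X. These chromosomes held 6296, 5574 and 2245 of the genes tested. Among 121 windows of 1 Mb with at least 20 genes tested, 27 held no DEG and 17 held 5 or more, with 120 DEGs in these 17.

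The window with most DEGs was 3R from 25 to 26 Mb, with 16 of 171 genes called (9.36%). It holds 5 called EcKinase-like genes, among them CG31436 (3R, 25304137 to 25305651, plus strand) and CG11893 (25289889 to 25291366, plus strand), beside uncalled members such as CG31370 and CG10550. Further along, 9 genes between CG17196 (from 25775288) and CR43847 (to 25797778), all on the minus strand, were higher in the TREM2R47H libraries. CG17196, CG17195 and CG4956 are related to the human palmitoyltransferase ZDHHC24, CG4960 to the endoplasmic reticulum shaping proteins REEP5 and REEP6, and CR43631, CR43632, CR43633 and CR43847 are non-coding. CR43847 stood at −1.77, −1.55 and −2.0 in the TREM2R47H libraries and at −6.42, −6.38 and −6.48 in the TREM2WT libraries, with −6.79 and −4.96 in tau flies. CG4960 stood at −0.56, −1.05 and −0.69 against −4.74, −2.85 and −4.05, with −4.98 and −3.15 in tau flies. The 9 means were between −3.94 and −0.77 in TREM2R47H flies and between −6.71 and −3.88 in TREM2WT flies, so the TREM2WT values were near the floor and the fitted log2 changes (2.27 to 4.65) are not sizes to rely on. CG31380, which lies among them, had means of 1.61 and 1.57 and was not called, and LpR1, the next well expressed gene before them, had 7.05 and 7.13. Other uncalled genes had higher TREM2R47H means, also at low values. These were CR43634 among the 9 (−3.12 against −4.97) and, past CR43847, BG642167 (−2.94 against −5.44) and CR45652 (−4.08 against −6.45). Further along were CG5024 (−3.53 against −4.50), CG14354 (−1.85 against −3.02) and CR44949 (−1.80 against −2.67). The called genes thus do not mark where the difference ends. CR43847 kept its call whichever library was left out. Calls of CG17195, CG4956, CG31093, CR43631, CR43632 and CR43633 were lost without at least 1 library of the 6, as in the case of CG17195 without TREM2WT replicate 1 (adjusted p = 0.19). CG11786 and tobi, a glucosidase-like gene controlled by insulin-producing cells, had log2 changes of −3.09 and −0.52, and both calls were lost without TREM2R47H replicate 1 (adjusted p = 0.28 and 0.17), TREM2R47H replicate 2 or TREM2WT replicate 2 or 3, and that of CG11786 also without TREM2WT replicate 1.

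The window with the next most DEGs was 2R from 19 to 20 Mb, with 11 of 98 genes called (11.2%), a higher share. Obp56a (2R, 19697723 to 19698508, plus strand), Obp56d (19702924 to 19703915, minus strand) and Obp56h (19815554 to 19816204, plus strand) lie here. The non-coding CR44506, which ends before Obp56a begins, fell by 0.74 on the log2 scale while Obp56a rose. CG11961 and CG10073, both related to the endoplasmic reticulum protease gene ERMP1, rose by 0.43 and 1.33, and EloC, an elongin C subunit of ubiquitin ligases, rose by 0.44 (adjusted p = 8.7e-06). CG43351 rose by 0.65 (adjusted p = 0.0027) and overlaps the serotonin receptor gene 5-HT1B. The organic cation transporter-like gene CG8654 fell by 0.54 (adjusted p = 0.00017). CG15120 and CG18367 lost their calls without TREM2WT replicate 1 (adjusted p = 0.11 and 0.26) and CR44506 without TREM2WT replicate 3 (0.060). CG15120 also lost its call without TREM2WT replicate 3 or TREM2R47H replicate 2, and CG18367 without TREM2WT replicate 2 or TREM2R47H replicate 1 or 2.

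**Figure D5:**
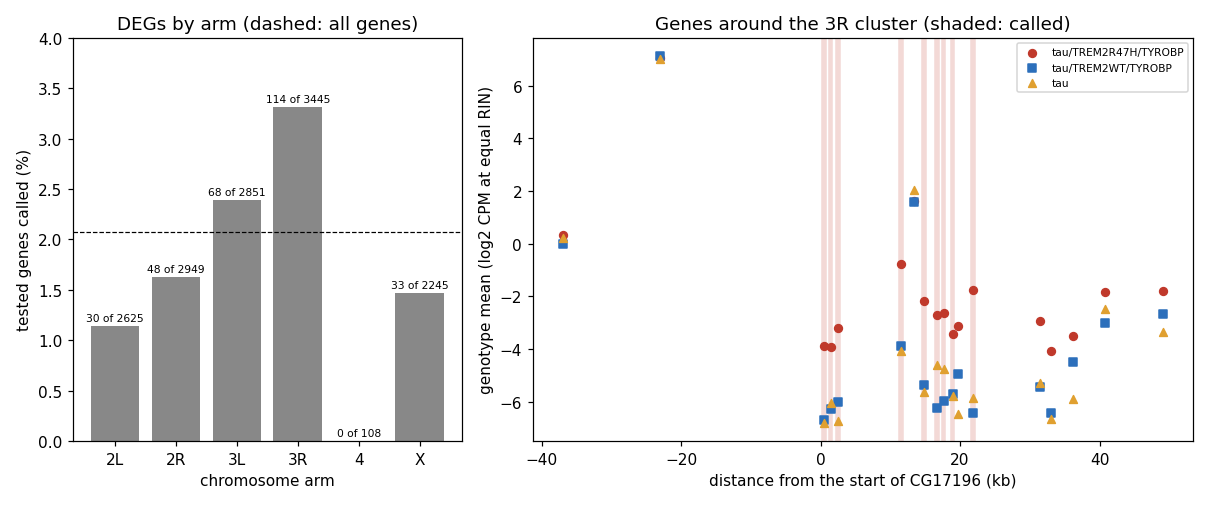
Left, percent of tested genes called on each chromosome arm, with the share of all genes (2.07%) as a dashed line and 3R highest at 3.31%. Right, genotype means in log2 CPM at equal RIN of the genes around the 3R cluster against distance from the start of CG17196 in kb, where the 9 shaded genes are higher in the TREM2R47H libraries and CG31380 and LpR1 are level. The uncalled genes plotted past CR43847 also have higher TREM2R47H means.

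A run of 3 neighbouring genes on 3R, noticed after the values were seen, rose together by unequal amounts. CG18547, CG12224 and CG3397 had log2 changes of 0.28, 0.62 and 1.08 and span 11978574 to 11984541, all on the minus strand. All 3 kept their calls whichever of the 6 libraries was left out. CG3397 was at 5.45, 5.37 and 5.17 in the TREM2R47H libraries, 4.07, 4.33 and 4.35 in the TREM2WT libraries and 5.17 and 5.21 in tau flies, and it was called in all 4 backgrounds. CG12224 was at 4.03, 4.06 and 3.94 against 3.27, 3.49 and 3.41, and CG18547 at 5.53, 5.49 and 5.46 against 5.19, 5.25 and 5.21. In none of the 3 did the groups overlap. CG12224 was also called with Aβ42 (0.41, adjusted p = 0.018, limma). CG18547 was called in tau flies alone, which does not show that it differed from the other backgrounds.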

How the data were processed

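Total RNA of pooled fly heads was sequenced as 35 libraries of 12 genotypes. Per the methods and the processing notes, the authors aligned reads with STAR 2.5.0b to BDGP6, counted them per gene with featureCounts, dropped genes that reached 5 reads in no sample, and normalized and adjusted them for RIN with limma. The deposited values are log2 CPM after this adjustment, and over all libraries they have no slope on RIN. The strand setting of the counting is not given in the sources used here. Depth per library is unknown from these values, so no counting interval is given, and precision rests on the 3 libraries a genotype.

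All 14279 genes were fitted with limma 3.58.1 in R 4.3.3 on the deposited log2 values of all 35 libraries, with a mean per genotype and RIN as covariate (22 residual degrees of freedom), without a pseudocount. DEGs passed 0.05 after Benjamini-Hochberg adjustment over all genes and a fold of 1.2, and differences between contrasts passed 0.05 alone. Values printed per library are set to a RIN of 6.71. Gene lists are described by counts and medians. The members and lists were chosen with earlier results of these data known. Named genes are the 12 largest rises and 12 largest falls without overlap and with a higher mean of at least 0, the called members of each list, the DEGs called in all 4 backgrounds, those in the 2 windows of 1 Mb with most DEGs, and the 3 largest differences in each direction between backgrounds. The result for 1 gene that met the rule is not reported here. Others are said to have been chosen after their values were seen. The alternatives were no RIN term, fewer libraries, a filter at a mean of 0, 1 added to the linear value, other scalings, a replicate block, trend estimation and each library left out. The fit was checked on simulated data. Gene names of later annotations come from FlyBase IDs, of which 98.2% were found in the reference annotation. Figures used Python 3.11.15 with matplotlib 3.10.9.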

Additional observations from a re-analysis of the deposited data

Results flagged for a closer look

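In each case below the TREM2R47H against TREM2WT contrast of tau flies differed from that of another background in limma, at an adjusted p under 0.05 over all genes. Against GMR-gal4 flies without tau the difference was −4.59 on the log2 scale for CG43725, at values below 1 CPM in every library of tau flies, and 1.02 for CG31437. Neither passed the test when any of the 6 compared libraries other than TREM2WT replicate 3 was left out, and without that library 1 of them did. Against elav-gal4 flies the 3 largest negative differences were −3.27 for the chorion gene Cp38, −2.63 for CG14143 and −2.57 for Desi. The 3 largest positive ones were 2.21 for CG5367, 1.61 for Obp56h and 1.30 for PPO1. Cp38 was at −6.29, −6.51 and −6.53 in the TREM2R47H libraries and −3.61, −3.20 and −3.67 in the TREM2WT libraries of tau flies. CG14143 and CG5367 were below 1 CPM in tau flies and were not called there. Driver and sex pattern also differ between these backgrounds and cannot be told apart from tau. Against elav-gal4 flies with Aβ42, where all 7 were negative, the 3 largest differences were −1.58 for CG14879, −0.82 for ACXD and −0.63 for the histone kinase gene JIL-1, which rose with Aβ42 (0.51) and had a log2 change of −0.12 in tau flies.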

How the results depend on the processing

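The 295 DEGs of the tau comparison became 515 without the RIN covariate (232 of the 295 among them), 143 with only the 17 GMR-gal4 libraries (133 among them), 17 with only the 6 libraries and no RIN, 0 with the 6 libraries and RIN (1542 at an unadjusted p under 0.05 in limma), 77 above a log2 change of 1, 460 without a fold threshold and 101 without both libraries with high alphaTry, an alternative chosen after seeing the data. Leaving out 1 library gave 152 to 324. A filter on low values, 1 added to the linear value, quantile normalization, median centring, trend with robust estimation and leaving out a TREM2WT library of GMR-gal4 flies in which 10 genes made up 53.3% of the summed values (also added after seeing the data) each kept the count within 1.5 times. Median centring moved the share of upregulated DEGs from 54.6 to 47.5%. Of the 295, 290 kept their direction in all 18 refits, and 66 were called in each of the 16 refits that used 17 or more libraries. Among 115 named genes the direction of Cyp4d21 alone turned, to −0.41 without RIN in both fits. The residual correlations of same-numbered libraries were −0.35, −0.34 and 0.18. They cannot show whether replicate numbers pair the samples, because the residuals of the 3 libraries of a genotype are not independent. A fit with the replicate number as a block gave 238 DEGs, 236 of them among the 295. The residual correlation was 0.46 between TREM2R47H replicate 2 and TREM2WT replicate 1, both high in alphaTry. It was 0.31 between TREM2R47H replicate 1 and TREM2WT replicate 2, both low in osk. A pairing of libraries under different numbers was not fitted.

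In GMR-gal4 flies the 253 DEGs became 718 without RIN, 103 with the 17 libraries and 39 with the 4 genotypes concerned. With the 4 genotypes alone the 269 of elav-gal4 flies became 160 and the 234 with Aβ42 became 104. The 2 genes that differed between tau flies and GMR-gal4 flies became 992 without RIN, 1 under the filter on low values and 0 with the 17 libraries, 4 genotypes, 1 added, quantile normalization, median centring, the replicate block, trend estimation or both alphaTry libraries out, where limma found 685 to 799 at an unadjusted p under 0.05. Leaving out 1 library gave 0 to 1. The 80 against elav-gal4 became 0 with 4 genotypes (1361 at an unadjusted p under 0.05), 123 under the filter, 128 with trend, 33 without both alphaTry libraries and 42 to 109 without 1 library. The 7 against Aβ42 became 13 without RIN, 0 with 4 genotypes (932), 25 with 1 added, 12 with trend and 3 to 11 without 1 library. The cause of these moves was not tested. Limits are the absence of counts and depth, values near the table's floor for 27 DEGs whose lower mean was under −4, RIN values that do not overlap between the genotypes, and 3 libraries a genotype.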

Other observations

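Further DEGs lie outside the lists described above and were singled out after their values were seen. CG3523 and mino, both of lipid synthesis, were lower in the TREM2R47H libraries of tau flies, and other genes of that pathway were not counted. CG3523, a fatty acid synthase gene, stood at 11.9, 11.9 and 12.0 against 12.4, 12.4 and 12.4 (log2 change −0.48, SE 0.08, adjusted p = 0.00068, limma). mino, a glycerol-3-phosphate acyltransferase gene, stood at 7.68, 7.62 and 7.64 against 8.0, 8.05 and 7.99 (log2 change −0.37, SE 0.05, adjusted p = 0.00012). The groups did not overlap for either gene, and both kept their calls whichever library was left out. Both also fell in GMR-gal4 flies without tau (−0.39 and −0.40) and were not called with elav-gal4 (0.02 and 0.06) or with Aβ42 (−0.17 and −0.04). Zw, the glucose-6-phosphate dehydrogenase gene, and Pfrx, which encodes the enzyme that makes and degrades fructose-2,6-bisphosphate, had log2 changes of −0.28 and −0.38, with calls lost without TREM2WT replicate 1 (adjusted p = 0.17 and 0.080), TREM2WT replicate 3 or TREM2R47H replicate 1, and for Zw also without TREM2R47H replicate 2.

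Among signalling genes, the tachykinin receptor gene TkR99D was at 3.92, 4.02 and 4.09 in the TREM2R47H libraries and 4.32, 4.49 and 4.42 in the TREM2WT libraries (log2 change −0.40, SE 0.07, adjusted p = 0.00091). Eh, which encodes eclosion hormone, was at −3.14, −4.90 and −3.72 against −1.58, −0.67 and −1.37 (log2 change −2.71, SE 0.58, adjusted p = 0.0086). The autophagy gene Atg16 was at 5.2, 5.25 and 5.04 against 4.79, 4.88 and 4.79 (log2 change 0.35, SE 0.05, adjusted p = 0.00011). In each of these genes the groups did not overlap and the call held whichever library was left out. Atg16 also rose without tau (0.58) and with Aβ42 (0.60) and had a log2 change of 0.08 with elav-gal4, which was not called.

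The Y chromosome entry CR41509, a pseudogene, stood at −1.08, −1.87 and −1.77 in the TREM2R47H libraries and −6.41, −6.35 and −6.47 in the TREM2WT libraries, and it was called upregulated in all 4 backgrounds, although the GMR-gal4 libraries had the yolk protein and roX1 pattern of females.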
